A study of Mus musculus with 2 samples.

Results

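The 7 genes described here, Fpr1, Fpr2, C5ar1, C3ar1, Ltb4r1, Ptafr and Gpr84, encode G protein-coupled receptors through which neutrophils sense formyl peptides, complement fragments and lipid mediators. They were chosen by gene name among 35522 features listed for both samples, and all 7 were found. The samples were 2 mRNA libraries of neutrophils sorted from bone marrow as CD11b-positive, Ly6G-high and Ly6C-low or negative cells, and both cultures contained 10 ng/ml GM-CSF, a myeloid growth factor. The PBS-treated culture received PBS for 3 days, and the ELV-treated culture, called exosome-treated here, received 20 μg/ml tumor exosomes for 3 days. According to the methods of the study, such exosomes were pelleted by ultracentrifugation from medium in which CT26 cells, a colon carcinoma line of the mouse, had grown as spheres without serum. The study calls these sphere-derived cancer stem cells. The mice used for isolating immune cells were Balb/C animals of 5 to 8 weeks. The number of animals behind each library and any pooling were not stated. Each group holds 1 library, so no value below has a spread between replicates, no test of the treatment was possible, and every difference is one between 2 libraries.

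Chemoattractant receptors sit on the neutrophil surface and couple mainly to inhibitory G proteins of the Gi type. Their ligands mark damage or infection: formylated peptides come from bacteria and mitochondria, C3a and C5a are cut from complement proteins, and leukotriene B4 and platelet-activating factor (PAF) are made from membrane lipids. Binding releases G protein βγ subunits, which activate phosphoinositide 3-kinase γ and phospholipase Cβ and start directed migration, granule release and the oxidative burst. Receptor kinases and β-arrestins then switch the receptors off.

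Levels are RPKM, reads scaled to the length of the exon model in kilobases and to the mapped reads of the library, which allows genes to be compared within a sample. Genes with 0.25 RPKM or more in each library were kept. With the PBS value as the denominator, a ratio of 2 or more was called higher and one of 0.5 or less lower. Of the 7 receptor genes, all 7 were kept, 4 were called higher (C3ar1, Gpr84, Fpr1 and Fpr2), 1 was called lower (Ptafr) and 2 stayed within 2-fold (C5ar1 and Ltb4r1). Among all 9698 features kept, 31.5% were called higher and 5.62% lower, so that 37.1% passed the limit in either direction. The median log2 ratio of these features was 0.53, against 1.88 for the 7 genes. A 4-fold limit was passed upward by 2 of the 7 genes, C3ar1 and Gpr84, and by 8.52% of all features kept, and downward by 0 of the 7 and by 1.14% of all. The depth, estimated from the smallest RPKM values, was about 65960000 mapped reads for the PBS library and 79120000 for the exosome library. Intervals given below are 95% intervals of estimated read numbers and cover counting error only.

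The order of the receptors differed between the libraries. In PBS-treated neutrophils Fpr2 stood highest at 429.08 RPKM, followed by Fpr1 at 383.64, C5ar1 at 265.62 and Ptafr at 235.04. Far below them were Gpr84 at 19.85 RPKM, Ltb4r1 at 16.60 and C3ar1 at 0.63. After exosome treatment Fpr2 and Fpr1 again headed the order, at 1581.86 and 1473.27 RPKM, and C5ar1 followed at 196.88. Gpr84, Ptafr and C3ar1 then lay close together at 98.22, 92.77 and 90.73 RPKM, and Ltb4r1 was lowest at 11.84. The counting intervals were 91.7 to 93.9 RPKM for Ptafr and 89.7 to 91.7 RPKM for C3ar1. Without replicates, whether neighbours in this order differ beyond the spread between cultures is unknown. The sum of the 7 values was 1350.46 RPKM in PBS and 3545.57 RPKM with exosomes. Fpr1 and Fpr2 made up 60.2% of it in PBS and 86.2% with exosomes.

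**Figure D1:**
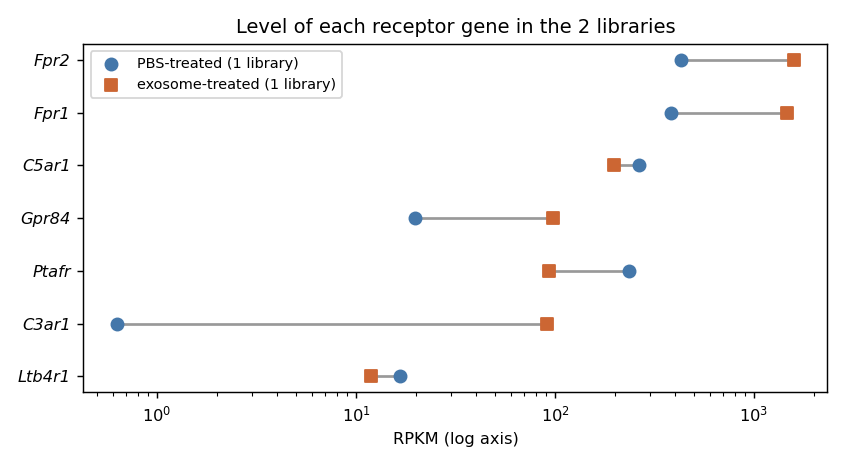
RPKM (horizontal log axis) of the 7 receptor genes in the PBS-treated library (blue circles) and the exosome-treated library (orange squares), 1 library each, with a line joining the values of a gene. Fpr1, Fpr2, Gpr84 and C3ar1 lie to the right after exosome treatment, with C3ar1 moving from 0.63 to 90.73 RPKM, whereas C5ar1, Ptafr and Ltb4r1 lie to the left.

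The formyl peptide receptors were the most abundant members in both libraries and differed by nearly the same factor. Fpr1, the high-affinity receptor for N-formyl peptides, had 383.64 RPKM in PBS and 1473.27 RPKM with exosomes, a ratio of 3.84 and a log2 ratio of 1.94 (counting interval 1.92 to 1.96). Fpr2, which also binds lipoxin A4, annexin A1 and serum amyloid A, had 429.08 and 1581.86 RPKM, a ratio of 3.69 and a log2 ratio of 1.88 (1.86 to 1.90). Within a library the genes kept close proportions, with an Fpr2 to Fpr1 ratio of 1.12 in PBS and 1.07 with exosomes. Among all features ranked by level, Fpr2 moved from place 82 to place 11 and Fpr1 from place 102 to place 15. Features of this abundance rarely had so high a ratio. When the features kept were divided by mean level into 10 groups of equal size, the most abundant group held 970 features with a mean of at least 54.5 RPKM. Their median log2 ratio was 0.01, 10.8% were called higher and 11.3% lower. In that group 97.3% of the features had a lower ratio than Fpr1 and 97.0% a lower ratio than Fpr2.

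Fpr1 and Fpr2 are neighbours on chromosome 17 and are read in opposite directions away from each other. In GENCODE M21 (build GRCm38) Fpr1 spans 17876471 to 17883940 on the minus strand and Fpr2 spans 17887824 to 17893952 on the plus strand, so that 3.88 kb separate them. The 250 bases before each start annotated by RefSeq (GRCm38.p6) are shown because the genes lie back to back and moved together. All printed sequences are in lower case, with capitals for any match to 5 motifs that were searched on both strands.
Fpr1, chr17:17883940-17884189, minus strand: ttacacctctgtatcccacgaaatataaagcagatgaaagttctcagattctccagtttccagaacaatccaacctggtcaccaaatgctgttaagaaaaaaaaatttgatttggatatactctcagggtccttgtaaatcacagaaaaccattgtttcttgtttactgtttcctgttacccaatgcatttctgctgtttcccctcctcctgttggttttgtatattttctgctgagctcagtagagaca
Fpr2, chr17:17887574-17887823, plus strand: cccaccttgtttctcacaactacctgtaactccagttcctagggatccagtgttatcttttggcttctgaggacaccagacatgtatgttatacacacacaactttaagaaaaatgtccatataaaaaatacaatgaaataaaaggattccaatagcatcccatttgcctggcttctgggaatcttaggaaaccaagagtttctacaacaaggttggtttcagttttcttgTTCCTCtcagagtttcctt
The motifs were GAGGAA, a core of sites for PU.1 and other ETS factors, TTGCNNAA for C/EBP and TGANTCA for AP-1. For NF-κB the letters were GGG, any 5 bases and CC, and for interferon regulatory factors GAAA, any 2 bases and GAAA. No match lay in the Fpr1 window, and the Fpr2 window held 1 ETS core on the opposite strand, starting 19 bases before the RefSeq start. The same core was in the Ltb4r1 and Ptafr windows, at positions -129 and -242 from the start on the opposite strand, so that 3 of the 7 windows held it, against 23.3% of 32851 windows of the same length. A match is a description of the letters and does not show that a factor binds.

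Other genes of the formyl peptide receptor family were close to silent. Fpr3, whose annotated span (17887852 to 17971677, plus strand) overlaps that of Fpr2 on the same strand, was listed at 0.07 RPKM in PBS and 0.03 with exosomes, and Fpr-rs3, Fpr-rs4, Fpr-rs6 and Fpr-rs7 were listed at 0 in both. The longest open reading frames of Fpr2 and Fpr3 were identical at 88.2% of aligned bases, whereas Fpr1 and Fpr2 shared 65.8%. Of the stretches of 50 bases in the longest Fpr2 transcript, 37.2% also occurred in annotated transcripts of Fpr1, Fpr3 or the gene model Gm5966, against 0.0784% for Fpr1. How the authors assigned reads that match several genes is not stated, so the level of Fpr2 carries that uncertainty. The low values of Fpr3 beside those of Fpr2 show that few reads had been assigned to it.

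Several genes for ligands of these receptors differed between the libraries as well, in both directions. Anxa1, which encodes annexin A1, had 663.57 RPKM in PBS and 276.17 RPKM with exosomes, a 2.40-fold lower level. Camp, the precursor of the cathelicidin peptide that acts on Fpr2, was 11.2-fold lower, at 381.38 and 33.92 RPKM. Saa3, an acute-phase serum amyloid A gene, was 19.1-fold higher, at 16.16 and 308.34 RPKM. Saa1 and Saa2 stayed at or below 0.06 RPKM in both libraries.

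The complement receptors C3ar1 and C5ar1 had ratios on opposite sides of 1, and only that of C3ar1 passed 2-fold. C3ar1, the receptor for the anaphylatoxin C3a, had 0.63 RPKM in PBS (counting interval 0.541 to 0.730) and 90.73 RPKM with exosomes. The ratio was 144, a log2 ratio of 7.17 with a counting interval of 6.96 to 7.39, and it was the second largest of the 9698 features kept. About 179 reads were estimated to lie behind the PBS value and 30904 behind the exosome value. C3ar1 moved from place 8561 to place 579 among all features by level. C5ar1, the receptor for C5a, had 265.62 RPKM in PBS and 196.88 RPKM with exosomes, a log2 ratio of -0.43 (counting interval -0.45 to -0.41). In PBS the C5ar1 level was 422 times that of C3ar1, and with exosomes it was 2.17 times.

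**Figure D2:**
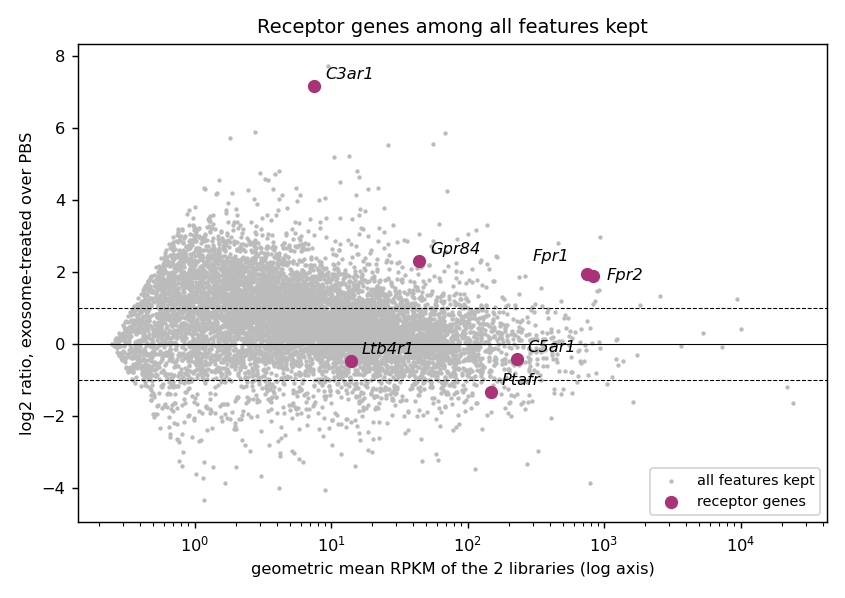
Log2 ratio of exosome-treated over PBS RPKM (vertical axis) against the geometric mean RPKM of both libraries (horizontal log axis) for the 9698 features kept (grey points), with the 7 receptor genes in purple and dashed lines at 2-fold. C3ar1 lies at 7.17 near the top of all features, Fpr1 and Fpr2 lie together near 1.9 among the most abundant features, and Ptafr lies below the lower line at -1.34.

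C3ar1 lies on chromosome 6, from 122847138 to 122856161 on the minus strand, in 2 exons with the coding sequence in 1 of them. The 250 bases before its RefSeq start are shown because its ratio was the largest among the receptors. The last 4 of them lie inside the GENCODE span of the gene, since the annotations differ in the start.
C3ar1, chr6:122856158-122856407, minus strand: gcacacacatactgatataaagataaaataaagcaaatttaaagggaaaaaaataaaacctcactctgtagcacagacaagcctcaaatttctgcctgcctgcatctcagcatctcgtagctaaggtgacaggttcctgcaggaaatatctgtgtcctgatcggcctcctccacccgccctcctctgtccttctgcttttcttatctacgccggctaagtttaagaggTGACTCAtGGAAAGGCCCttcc
This window held 1 AP-1 match, starting 22 bases before the RefSeq start, and 1 NF-κB match on the opposite strand, starting 14 bases before it, which do not overlap. The AP-1 letters were present in 6.75% and the NF-κB letters in 45.8% of all windows. No other window of the 7 receptor genes held a match to either motif. The C/EBP letters were found in 0 of the 7 windows and in 9.56% of all windows, and the interferon regulatory factor letters in 0 of 7 and in 2.98%.

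The genes around C3ar1 included a run of others with high ratios. Of 8 protein-coding genes listed within 200 kb, 6 were kept, 4 were called higher and 1 lower. Over all features kept, 31.5% were called higher and 5.62% lower. Foxj2, the nearest at 1.77 kb, had 24.66 and 27.66 RPKM, a ratio of 1.12. On the other side, Necap1 was 2.47-fold higher, followed by the C-type lectin receptor genes Clec4a1 (8.06 and 381.47 RPKM, ratio 47.3), Clec4a3 (8.96 and 522.89 RPKM, ratio 58.4) and Clec4a4 (1.29 and 17.65 RPKM, ratio 13.7). Clec4b1 went from 0.19 RPKM, below the filter, to 2.69 RPKM. Slc2a3, a glucose transporter gene 45.5 kb away, had 275.42 and 69.56 RPKM and was called lower. This window was looked at after the values of C3ar1 and the lectin genes were known, and no test was made of it.

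**Figure D3:**
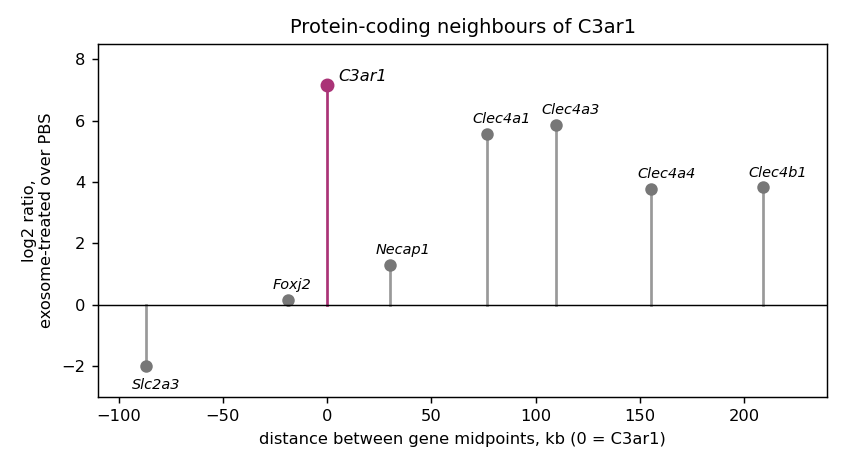
Log2 ratio of exosome-treated over PBS RPKM (vertical axis) for C3ar1 (purple) and the protein-coding genes within 200 kb that had an RPKM above 0 in both libraries (grey), placed by the distance between gene midpoints in kb (horizontal axis). Foxj2 beside C3ar1 lies near 0, whereas Clec4a1 and Clec4a3 on the other side reach ratios of 47.3 and 58.4.

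Macrophages and other mononuclear phagocytes are known to carry C3ar1, so their markers were read beside it. All 12 monocyte and macrophage markers had a larger value with exosomes, but only 6 passed the filter and 4 of these were called higher (Csf1r, Adgre1, C1qb and C1qc), beside 31.5% of all features kept. The summed level of the 12 was 164.66 RPKM in PBS and 462.97 RPKM with exosomes. Most of this sum came from Cd68 (83.91 and 145.79 RPKM, within 2-fold), Csf1r and Adgre1. Csf1r had 58.1 and 152.64 RPKM, and Adgre1, which encodes F4/80 and is listed as Emr1, had 20.91 and 151.51 RPKM. C1qa, C1qb and C1qc stayed between 0.18 and 3.79 RPKM, Ccr2 had 0.50 and 0.88 RPKM, and Mertk and Mrc1 reached at most 0.48 RPKM. Of the 12 markers, none was at 0 in either library. In the same libraries all 10 neutrophil markers were lower with exosomes, 9 of them at least 2-fold, beside 5.62% of all features kept. Ly6g had 286.96 and 56.19 RPKM. S100a8 (32823 and 14382 RPKM) and S100a9 (43059 and 13834 RPKM) made up most of the summed levels of 84208 and 30428 RPKM. Of the granule and late neutrophil markers, Retnlg was 14.5-fold, Ngp 10.1-fold, Ltf 9.54-fold and Mmp8 4.17-fold lower, with Ltf at 15.09 RPKM in the exosome library. Cxcr2 is on this list as well as among the chemokine receptors. According to the methods of the study, sorted cells had to pass a lower limit of purity, which allows some cells of other types. The part that a changed mix of cells had in any of these values was not tested. In bulk RNA, more cells of a type and more RNA per cell cannot be told apart. The study also reported higher viability and less apoptosis of neutrophils given these exosomes. The part of such a difference in the values was not tested either.

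Among other genes of the complement list, 6 besides C3ar1 and C5ar1 were kept, with a median log2 ratio of -0.30. Beside 31.5% higher and 5.62% lower among all features kept, 0 of the 6 were called higher and 2 lower. The genes called lower were C5ar2, which encodes the second C5a receptor and is listed as Gpr77, and Itgax, the α chain of complement receptor 4. C5ar2 had 46.72 RPKM in PBS and 19.51 RPKM with exosomes, a 2.39-fold lower level, and lies 2.59 kb from C5ar1 on chromosome 7 in the same orientation. C5ar1 itself spans 16246743 to 16259540 on the minus strand. Itgam and Itgb2, the chains of complement receptor 3, stayed within 2-fold, with ratios of 1.26 and 1.06. Cmklr1, a chemerin receptor, was below the filter at 0.06 RPKM in PBS and had 1.60 RPKM with exosomes. On the ligand side C3 had 137.25 and 512.42 RPKM, a ratio of 3.73, and Cfp, which encodes properdin, had a ratio of 3.58. Cfb, which encodes factor B, was below the filter in PBS at 0.07 RPKM and had 1.99 RPKM with exosomes, while Hc, the gene for C5, did not exceed 0.03 RPKM. C3, the precursor of C3a, and C3ar1 were therefore both called higher in the exosome library, whereas Hc was below the filter in both libraries.

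The receptors for lipid ligands moved in different directions. Gpr84, a receptor for medium-chain fatty acids, had 19.85 RPKM in PBS (counting interval 19.0 to 20.7) and 98.22 RPKM with exosomes. Its ratio was 4.95 and its log2 ratio 2.31 (2.24 to 2.37), which exceeded that of 98.9% of the 970 features of similar level. Gpr84 lies on chromosome 15, from 103308235 to 103310612 on the minus strand. An antisense gene model, Gm49482, overlaps it and holds 37.8% of the 50-base stretches of its transcript. This model is not among the features of the files, and whether reads were counted by strand is not stated, so its reads could not be separated from those of Gpr84.

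Ptafr, the PAF receptor, had 235.04 RPKM in PBS and 92.77 RPKM with exosomes and was the only one of the 7 called lower. Its level was 2.53-fold lower, a log2 ratio of -1.34 (counting interval -1.36 to -1.32). Only 6.39% of the features of similar level had a lower ratio, and 11.3% of them were called lower. In PBS the level of Ptafr was 11.8 times that of Gpr84, and with exosomes the genes were nearly level, at a ratio of 0.945. Ptafr lies on chromosome 4, from 132564067 to 132582683 on the plus strand.

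Ltb4r1, which encodes the high-affinity leukotriene B4 receptor BLT1, was low in both libraries, at 16.60 RPKM in PBS (counting interval 15.8 to 17.4) and 11.84 RPKM with exosomes (11.2 to 12.5). The log2 ratio was -0.49 (-0.59 to -0.38). Features of a similar level had a median log2 ratio of 0.37, and 10.1% of them lay below Ltb4r1. The call depended on scaling, since Ltb4r1 passed the 2-fold limit when the median log2 ratio of all features was subtracted (-1.01). Ltb4r1 lies on chromosome 14, from 55765962 to 55768494 on the plus strand, and Ltb4r2, for the low-affinity receptor, lies 0.824 kb before it. Ltb4r2 was listed at 0.04 and 0.05 RPKM.

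Most genes that make the lipid ligands stayed within 2-fold. Alox5, Alox5ap and Lta4h, whose products all serve the making of leukotriene B4, had log2 ratios of -0.95, -0.36 and 0.35 and stayed within 2-fold. Cyp4f18, whose product oxidises leukotriene B4, was 3.16-fold lower, at 438.86 and 139.09 RPKM. Lpcat2, a PAF synthase gene, had 106.79 and 188.11 RPKM, and Pla2g7, the PAF acetylhydrolase gene, had 426.86 and 699.51 RPKM, both within 2-fold. Lpcat1 was 4.14-fold higher, at 2.48 and 10.26 RPKM. Over the whole list of ligands and ligand-making enzymes, 16 of 23 genes were kept, 4 were called higher (Saa3, C3, Cfp and Lpcat1) and 3 lower (Anxa1, Camp and Cyp4f18), with a median log2 ratio of 0.09. Of all features kept, 31.5% were called higher and 5.62% lower.

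Other receptors for lipids and metabolites were also split. Leaving out Ltb4r1, Ptafr and Gpr84, 13 of 24 such genes were kept, 5 were called higher and 4 lower, with a median log2 ratio of 0.49. Among all features kept, 31.5% were called higher and 5.62% lower, and the median was 0.53. The genes of the list at least 4-fold higher were Adora2a, an adenosine receptor gene (1.24 and 24.79 RPKM, ratio 20.0), Gpr18 (0.27 and 5.29 RPKM, ratio 19.6) and Gpr35 (0.45 and 6.82 RPKM, ratio 15.2). Adora2b was below the filter in PBS at 0.15 RPKM and had 3.23 RPKM with exosomes. The 4 genes called lower were the sphingosine 1-phosphate receptor genes S1pr1, S1pr2 and S1pr4 and the hydroxycarboxylic acid receptor gene Hcar2, listed as Niacr1, with ratios from 0.371 to 0.495. S1pr1 and Hcar2, at 0.490 and 0.495, lay near the limit, and 2 genes of the list were called lower after rescaling to TPM. None of the 4 was lower by 4-fold. The genes called lower were named after their values were seen.

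Chemokine receptors, which steer neutrophils through the same G proteins, are the closest comparison. Of 20 genes written for that list, 10 were kept, 0 were called higher and 5 lower, and the median log2 ratio was -0.78. These calls stand beside 31.5% higher and 5.62% lower among all features kept. The 5 genes called lower were Cxcr1, Cxcr2, Cxcr3, Cxcr4 and Ccr1, named after their values were seen. Cxcr2 had 780.77 and 324.93 RPKM and Ccr1 383.78 and 101.97 RPKM, so in PBS both were at or above the level of Fpr1, and with exosomes both were below it. The absence of higher calls depended on the filter. Without it 3 genes were called higher and 8 lower. Cx3cr1, below the filter, had 0.10 RPKM in PBS and 1.39 RPKM with exosomes. With a pseudocount of 1 the lower calls numbered 3. With 1 library a group, the difference between the families was not tested.

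**Figure D4:**
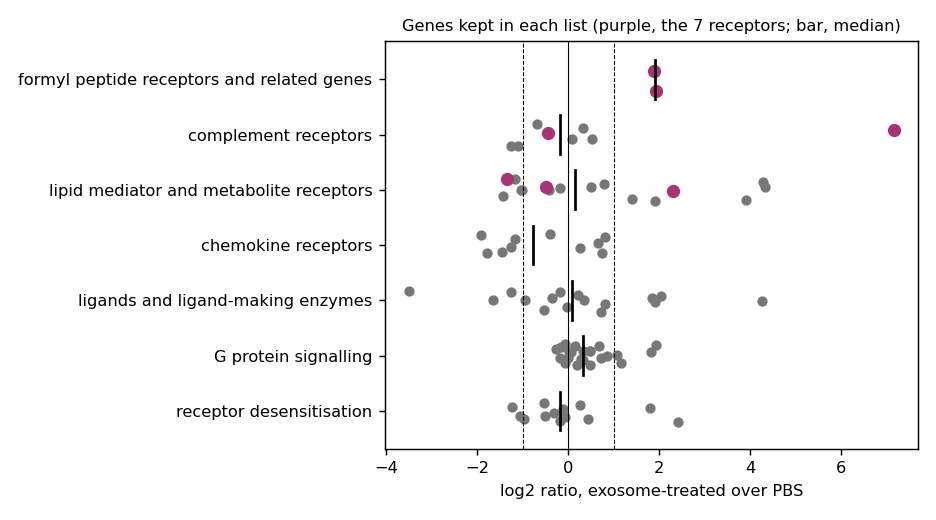
Log2 ratio of exosome-treated over PBS RPKM (horizontal axis) for every gene kept in 7 lists (rows), with the 7 receptors in purple, other genes in grey, a black bar at each list's median and dashed lines at 2-fold. The chemokine receptor genes center on -0.78 with none beyond the upper line. Lipid and metabolite receptors lie beyond both lines. Of the complement receptor genes only C3ar1, one of the 7 chosen receptors, lies beyond the upper line.

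Genes that carry the signal inside the cell were mostly within 2-fold. Of 24 listed genes of G protein signalling, 23 were kept, 4 were called higher and 0 lower, with a median log2 ratio of 0.32. The shares over all features kept were 31.5% higher and 5.62% lower. Gnai2, the main inhibitory α subunit of leukocytes, had 547.12 and 688.21 RPKM, and Pik3cg, the catalytic subunit of phosphoinositide 3-kinase γ, had 56.85 and 79.38 RPKM. The 4 genes called higher, named after their values were seen, were Gnb1, Gng10, Gngt2 and Prkcb, with ratios from 2.11 to 3.84. Under median centring or with the trimmed mean subtracted, 2 were called higher. Of 15 genes on the receptor desensitisation list, 13 were kept. They include Gnaq, which encodes a G protein α subunit and had a log2 ratio of -0.53. Beside the same shares over all features, 2 were called higher and 2 lower, with a median log2 ratio of -0.19. Grk2, listed as Adrbk1, had 314.63 and 275.99 RPKM and Arrb2, for β-arrestin 2, had 253.86 and 177.98 RPKM, both within 2-fold. Rgs10, a regulator that speeds the switching off of G proteins, was 5.33-fold higher (3.08 and 16.42 RPKM), and Grk5 was 3.50-fold higher. Rgs14 and Rgs18 were 2.08-fold and 2.35-fold lower. Under the same pair of scalings 5 genes of the desensitisation list, Gnaq among them, were called lower.

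For each receptor the features nearest in level were sought, by distance on the log2 RPKM scale over the 2 libraries. Fpr1 and Fpr2 were each other's nearest feature of all 9698, at a distance of 0.19, and Fcer1g came next for both. C3ar1 had few features like it, with Tifab at a distance of 0.61 (0.65 and 138.21 RPKM) and Apoc2 at 1.55. The others lay in crowded ranges. Rtp4 and Qsox1 were nearest to Gpr84, Aldh2 and Gcnt1 to Ptafr, Csf2ra and Cd300lf to C5ar1, and Pias3 and Pak1 to Ltb4r1, at distances from 0.01 to 0.14. With 2 libraries such closeness describes a pair of values and no more.

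The windows before the RefSeq starts also differed in base composition. Guanine and cytosine made up 38.4% of the 250 bases for Fpr1, 38.8% for Fpr2, 45.6% for C3ar1 and 46.0% for Gpr84, the genes called higher. They made up 52.8% for C5ar1, 56.0% for Ptafr and 56.8% for Ltb4r1, and the median of all windows was 52.4%. Of these windows, 202 bases for C5ar1 and 174 bases for Gpr84 lie inside the GENCODE spans given above, because RefSeq places those starts inside the gene, so that they are not purely upstream sequence. This is a description of 7 genes, noticed after their ratios were known. All 7 had 2 exons in their longest annotated transcript, and for Fpr1, C3ar1, Ltb4r1, Ptafr and Gpr84 every annotated coding transcript had its coding sequence in 1 exon.

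As the median ratio of all features was above 1, the ratios of the receptors were recomputed under other scalings. The direction was the same under all of them for each of the 7 genes. Subtracting the median log2 ratio of all features gave 1.41 for Fpr1, 6.64 for C3ar1, 1.78 for Gpr84 and -1.87 for Ptafr, all still past 2-fold. Under it C5ar1 reached -0.96, within 2-fold.

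**Figure D5:**
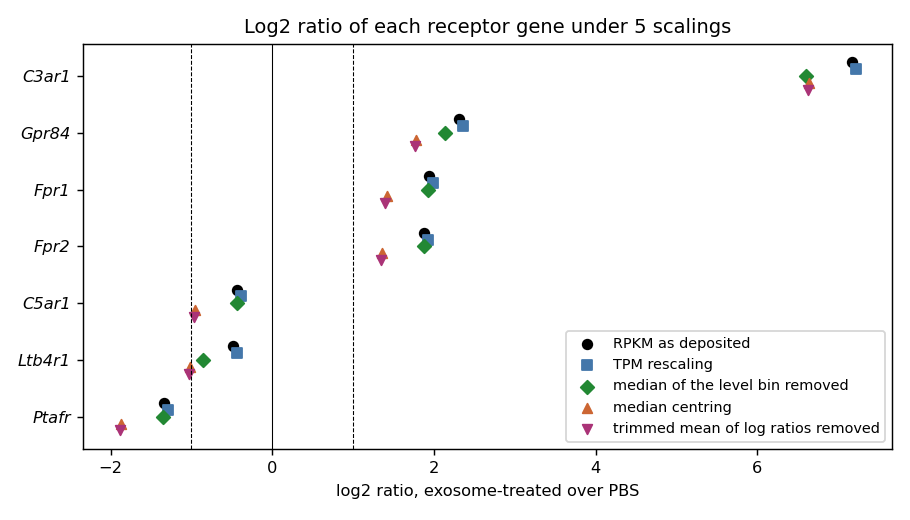
Log2 ratio of exosome-treated over PBS (horizontal axis) for the 7 receptor genes (rows) under 5 scalings, with dashed lines at 2-fold. Each gene stays on its side of 0, and Ltb4r1 is the gene whose markers fall on both sides of the lower line, from -0.49 as deposited to -1.03 with the trimmed mean removed.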

How the data were processed

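Sorted mouse bone marrow neutrophils cultured with PBS or with tumor exosomes gave 1 RNA library each. According to the study, TruSeq mRNA libraries were sequenced on a HiSeq instrument, and reads were trimmed by base quality and analysed in CLC Genomics Workbench. The authors deposited 1 RPKM value per feature and sample, and values above 0.01 are rounded to 0.01. The build is mm10 per the labels. The gene annotation, the strand setting, the treatment of reads matching several genes and any scaling between samples are not given in the sources used here.

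Ratios were computed without a pseudocount for features with RPKM of at least 0.25 in both samples. The filter and the 2-fold limit for higher genes follow the study, and the limit for lower genes mirrors it. As no group has replicates, no test was run. The total of mapped reads was estimated from features below 0.01 RPKM as the value, common to 225 of 918 features in PBS and 270 of 1064 with exosomes within 0.5%, that 1 read gives with the longest GENCODE M21 transcript. The ratio of the totals, read without lengths in 220 of 415 features, was 1.20. Read numbers, exact Poisson intervals of levels and exact Clopper-Pearson intervals of ratios follow from these totals. The exon models used by the authors may differ from those transcripts.

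The 7 receptor genes, the 7 pathway lists and the marker lists were chosen with earlier results of these data known. Genes named by rule were the 7 receptors, the 2 features nearest to each, and pathway list genes at least 4-fold higher or lower. A set of family, ligand and signalling partners, and marker genes as needed to check the cell type, were named too. Neighbouring genes and those said in the text to be named after their values were seen come on top. Further list genes were also named with their values known, among them Grk5, Rgs14, Rgs18, Itgax, Cfp, Cfb, Cyp4f18, Pla2g7 and Cmklr1. Dock2 was not among the features analysed. Mouse symbols matched directly or through older names given in the text. The 25 features bearing a date serial number stayed in all counts. Similar level means 1 of 10 groups of equal size by mean log2 RPKM. Python 3.11.15, pandas 2.3.3, SciPy 1.17.1 and Biopython 1.88 were used, and the calling step was tested on simulated data. The 9 alternatives concerned scaling, filter, pseudocount and fold limit.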

Additional observations from a re-analysis of the deposited data

How the results depend on the processing

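All differences rest on 1 library a group, so variation between cultures, animals and library preparations is unknown, and leaving out each library in turn was not possible. None of the 7 log2 ratios changed sign under the alternatives for scaling, filter and pseudocount, and 6 of the 7 genes kept their 2-fold call under every one of these that gave a value. C3ar1 has no value when features under 1 RPKM in either library are left out. No paired analysis was possible because each group has 1 library and the result comes from no test.

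Under median centring the log2 ratios were 1.41 for Fpr1, 1.36 for Fpr2, 6.64 for C3ar1, 1.78 for Gpr84, -0.96 for C5ar1, -1.01 for Ltb4r1 and -1.87 for Ptafr. With the trimmed mean of the ratios subtracted they were 1.40, 1.34, 6.63, 1.77, -0.97, -1.03 and -1.88 in the same order. Both settings therefore called 2 of the 7 genes lower, Ltb4r1 being added. They called 1634 and 1594 of all features higher and 1282 and 1322 lower, and brought the median log2 ratio of all features to 0 and -0.02. Rescaling to TPM gave 1.99 for Fpr1, 1.93 for Fpr2, -0.38 for C5ar1 and -1.29 for Ptafr. Removing the median of features of similar level gave 6.60 for C3ar1, 2.14 for Gpr84 and -0.86 for Ltb4r1, and called 1290 features higher and 1304 lower.

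A pseudocount lowered the ratio of C3ar1, whose PBS value was low: its log2 ratio was 6.69 with a pseudocount of 0.25 and 0.25 RPKM required in either library, and 5.81 with a pseudocount of 1, which left 1976 features called higher. Leaving out features under 1 RPKM in either library left 1958 higher. Without a filter 1436 features were called lower. With a 4-fold limit, 2 of the 7 genes were higher (C3ar1 and Gpr84) and 0 lower, and 826 of all features were higher and 111 lower. The pathway lists, with the 7 receptors left out, gave 126 counts under these settings, and 98 stayed within 1.5 times the main value. Many of the 98 were 0 in both settings and so say little about stability. The formyl peptide receptor list had 0 genes kept once the receptors were left out.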

Other observations

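Signs of other cell types were uneven between the libraries. Among lymphocyte markers Cd79a had 38.25 RPKM in PBS and 24.44 RPKM with exosomes, and Ms4a1 had 15.64 and 10.02 RPKM, while Cd3e did not exceed 0.06 RPKM. Cd3d stood apart from Cd3e, at 56.44 RPKM in PBS and 7.02 RPKM with exosomes. Of the 8 lymphocyte markers, 5 had a smaller value with exosomes and 3 a larger one. Klrb1c was among the latter, at 0.01 RPKM in PBS, below the filter, and 0.51 RPKM with exosomes. Eosinophil, basophil and mast cell markers summed to 12.4 RPKM in PBS and 7.13 RPKM with exosomes, dendritic cell markers to 3.53 and 2.23 RPKM, and erythroid markers to 1.72 and 0.175 RPKM. Of the epithelial and tumor markers, Epcam, Krt8, Krt18, Krt19 and Cdh1 did not exceed 0.38 RPKM, and Cd44, which neutrophils also express, had 204.39 and 223 RPKM. The part of these cells in the receptor values was not tested.

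Around Gpr84, 9 protein-coding genes within 200 kb were kept, of which 5 were called higher and 0 lower, among them Itga5, an integrin chain gene, at 5.62 and 22.52 RPKM. Around Ltb4r1, itself within 2-fold, 17 were kept, of which 8 were called higher and 1 lower. Around Ptafr 1 of 10 was called higher and 1 lower, and around C5ar1 2 of 10 were called higher and 2 lower. These counts stand beside 31.5% higher and 5.62% lower among all features kept.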
